A study of Mus musculus with 2 samples.

Results

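Haem is built from glycine and succinyl-CoA by a chain of enzymes, and the genes of 8 of them, Alas1, Alas2, Alad, Uros, Urod, Cpox, Ppox and Fech, were followed through the gene and transcript quantifications of embryonic mouse liver. They were taken by their GENCODE M21 symbols, though the list was drawn up with earlier results of these data known. They are 8 of 55536 annotated genes and hold 69 of 141862 annotated transcripts. The libraries were made from liver of healthy B6NCrl embryos at 12.5 days of development, with no treatment or altered allele in the labels. They form 1 group of 2 biological replicates, replicate 1 from a pool of 120 embryos and replicate 2 from a pool of 88, with both sexes in each pool. RNA with a polyA tail was sequenced from 10 ng of total RNA, to which ERCC spike-ins had been added. No other group was available for a comparison, so what follows compares genes, transcripts, libraries and annotations.

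The first enzyme, aminolevulinate synthase, exists as a housekeeping form made in most cells (Alas1) and an erythroid form made in developing red cells (Alas2). The later enzymes come from single genes, and some of those genes carry a housekeeping and an erythroid promoter. At this stage the foetal liver is a main site of red cell formation, and red cells need haem for haemoglobin, while the liver's own cells use haem in cytochromes.

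The tissue label was checked against marker genes. Values are in TPM, a unit in which each gene's estimated reads are divided by its effective length and scaled to a fixed total per library. All 10 red cell markers exceeded 10 TPM, with summed levels of 207932 and 211768 TPM in replicates 1 and 2. Most of that sum lay in the globin genes Hbb-bs, Hba-a1 and Hba-a2, with means of 60236, 44847 and 102648 TPM. All 8 hepatoblast and liver markers exceeded 1 TPM and 7 exceeded 10 TPM, with summed levels of 10426 and 10177 TPM. The median marker had 441 TPM for red cells and 662 TPM for liver. Of all protein-coding genes, 54.3% reached 1 TPM and 32.1% reached 10 TPM. Other cell types were present too, with summed marker levels of 835 and 726 TPM for megakaryocytes, 281 and 295 TPM for mesenchyme, 217 and 230 TPM for granulocytes, 107 and 103 TPM for macrophages and 43.9 and 40.7 TPM for endothelium, while the 3 lymphoid markers stayed under 1 TPM. The pools hold RNA of many cell types, so more cells of a type and more RNA per cell cannot be told apart for any level given here, and the part of each cell type in the enzyme levels was not tested. The expected counts of annotated genes, the authors' estimates of reads per gene, were 37190042 and 34291772 in total, and spike-ins took 4.99% and 5.40% of TPM. With 2 libraries the smallest p of an exact sign-flip test is 0.5, so values are given as mean ± SD (n = 2) with no test. The SD covers the spread between the libraries alone, in which pools and the authors' division of reads among models are not told apart.

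All 8 enzyme genes exceeded 10 TPM and 7 of 8 exceeded 100 TPM, against 32.1% and 5.38% of 22028 protein-coding genes. Their median was 496 ± 2.18 TPM, against 1.81 ± 0.0177 TPM over all protein-coding genes. Alas1, the housekeeping form, was the only member under 100 TPM. Together the enzymes took 0.323% of all TPM in replicate 1 and 0.331% in replicate 2.

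**Figure D1:**
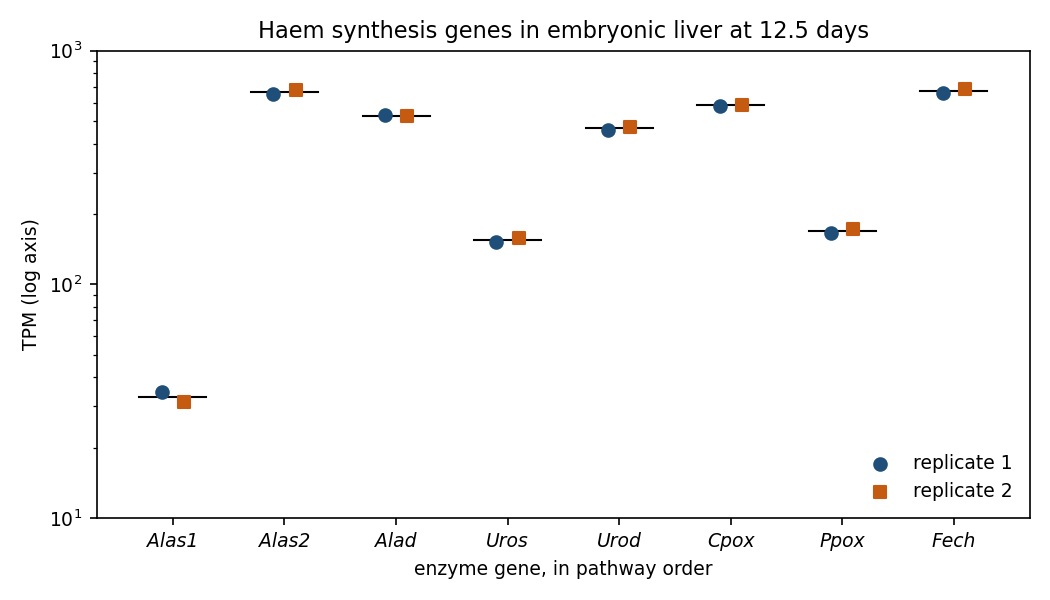
TPM on a log axis of the 8 enzyme genes in pathway order, with a circle for replicate 1, a square for replicate 2 and a line at their mean. Alas1 sits alone near 33.0 TPM, Uros and Ppox between 151 and 173 TPM, and the other 5 genes between 459 and 688 TPM.

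The sequences beside the annotated starts were searched for letters known from erythroid promoters. They are RefSeq promoter windows of build GRCm38.p6, the coordinates of mm10, which run from 250 bases before to 50 bases after a RefSeq start, and 7 of the 8 genes had a window, all but Fech. Exact matches were sought on both strands for the site of GATA factors, as AGATAA or as the forms AGATAG or TGATAA or TGATAG. The CACCC box, bound by erythroid KLF factors, the CCAAT box, TATAA and the palindromic NRF1 site were sought in the same way, with overlapping matches counted. The stretches outside annotated M21 exons are printed 5′ to 3′ on the gene's strand, with capitals on the GATA, CACCC and CCAAT matches. A match on the other strand reads as its reverse complement, so that AGATAA is seen there as TTATCT. The CACCC box is then seen as GGGTG and the CCAAT box is seen as ATTGG. A match is a run of letters in this window and was not tested as a bound site.

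Alas2 is shown as the erythroid form. Its stretch, chrX:150547167-150547374 on the plus strand, holds a GATA match 86 bases upstream of the RefSeq start, and 3 CACCC matches 30, 35 and 40 bases upstream lie past its end, in the first exon of the M21 model.
Alas2: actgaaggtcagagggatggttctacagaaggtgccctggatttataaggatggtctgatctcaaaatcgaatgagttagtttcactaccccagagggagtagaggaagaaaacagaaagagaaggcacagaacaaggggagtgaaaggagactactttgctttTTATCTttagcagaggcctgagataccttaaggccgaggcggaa
Cpox is shown because its window held the most matches. In chr16:58669958-58670237 on the plus strand, AGATAG and TGATAA overlap at 91 and 86 bases upstream of the RefSeq start, AGATAA lies 5 bases past it, and 4 CACCC matches stand at 243, 204, 135 and 6 bases upstream.
Cpox: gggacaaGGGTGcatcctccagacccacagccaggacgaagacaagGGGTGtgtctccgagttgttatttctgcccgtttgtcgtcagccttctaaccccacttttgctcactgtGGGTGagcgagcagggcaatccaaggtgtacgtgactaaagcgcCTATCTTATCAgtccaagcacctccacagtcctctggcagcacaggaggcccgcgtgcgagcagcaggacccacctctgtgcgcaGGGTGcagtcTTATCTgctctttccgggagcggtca
Ppox is shown as a contrast. Its window, chr1:171281187-171281436 on the minus strand, held 4 CCAAT matches and none of the GATA or CACCC letters.
Ppox: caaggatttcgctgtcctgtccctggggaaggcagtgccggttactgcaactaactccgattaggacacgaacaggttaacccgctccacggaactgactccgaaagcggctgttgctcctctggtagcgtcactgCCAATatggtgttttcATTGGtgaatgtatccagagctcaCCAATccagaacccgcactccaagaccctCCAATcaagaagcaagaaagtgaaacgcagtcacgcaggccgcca
Uros is shown at both of its RefSeq starts. The stretch before exon 1, chr7:133709282-133709332 on the minus strand, is all that lies between the outer start of this cluster and the start of Bccip, a neighbour on the other strand, and held no match. The stretch in the intron before exon 2, chr7:133702617-133702750 on the minus strand, holds AGATAG 205 bases upstream of the inner RefSeq start, and a TGATAA match 68 bases upstream lies past its end.
Uros before exon 1: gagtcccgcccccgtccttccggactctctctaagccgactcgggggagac
Uros before exon 2: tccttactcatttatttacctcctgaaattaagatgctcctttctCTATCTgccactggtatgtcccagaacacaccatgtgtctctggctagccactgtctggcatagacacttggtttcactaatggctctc
Of all 32851 RefSeq windows of this length, 11.2% held AGATAA, 8.95% AGATAG, 9.05% TGATAA, 7.29% TGATAG, 57.5% CACCC and 37.4% CCAAT. The GATA letters were found in Alas2, Cpox and the exon 2 window of Uros, and none of the forms searched was found in the windows of Alas1, Alad, Urod or Ppox or at the outer start of Uros. At least 1 form was present in 3 of the 10 windows of the members and in 29.8% of all windows, so by window the shares were alike. Some genes count more than once here, as the windows of Alas1 overlap each other and so do those of Alad, all without a match. Counted by gene the share of the members would be higher, and other genes were not counted so. CACCC is present in more windows than not, so its matches separate the enzymes little from other genes. TATAA, found in 24.9% of all windows, was matched among the members only in that of Alas2, 207 bases upstream of the RefSeq start.

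Alas1 (ENSMUSG00000032786.16, chromosome 9, 106233455 to 106248654, minus strand on mm10) encodes the housekeeping aminolevulinate synthase, which makes aminolevulinate in the mitochondrion. It reached 34.5 TPM in the first library and 31.5 TPM in the second (33.0 ± 2.13). This placed it at the 84.5 percentile of protein-coding genes, the lowest of the members, and replicate 1 was the higher library. Its SD was 6.45% of its mean, against 0.945% to 3.24% for the other 7 genes. Most of this gap lay in a single short model, Alas1-211, at 15.6 and 12.6 TPM. In scaled expected counts of the whole gene the log2 ratio of replicate 2 to replicate 1 was only -0.03. Whether the larger SD came from the pools or from the division of reads among models was not tested.

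The reads of Alas1 were divided among 13 annotated models in a way that bears on this level. Alas1-206, a processed transcript with no annotated reading frame, took 45.7% of Alas1 TPM in replicate 1 and 48.1% in replicate 2. It starts at 106243634, 3321 bases downstream of the start codon of Alas1-201, and covers 89.7% of the coding bases of that full-length model. Alas1-211, a coding model of 460 bases that starts at 106248157 and covers 18.3% of the coding bases, took 45.3% and 40.2%. Together they held 89.7 ± 1.99% of Alas1 TPM, while Alas1-201 held 2.29% and 3.53%.

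The expected counts give the depth behind those shares. Alas1-206 had 930 and 827 expected reads, with an authors' posterior SD (the uncertainty of dividing reads among overlapping models) of 48 and 64.1. Alas1-201 had 52.7 and 68.0 expected reads with a posterior SD of 55.6 and 70.9. The posterior SD of the full-length model exceeded its estimate in both libraries, while that of Alas1-206 was small beside its estimate. Both leading models nevertheless lie mostly in exons of Alas1-201. Of the 1905 bases of Alas1-206, 1822 are shared with Alas1-201 and 80 are in no other model. Alas1-211 shares 445 of its 460 bases and has no base outside other models. Whether reads given to this pair came from full-length messengers was not tested. By model type, 76.0 ± 0.214% of Alas1 counts fell on models that are not protein-coding, against a median of 4.24% over 6608 protein-coding genes with several models at 10 TPM or more.

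NRF1, a regulator of genes for mitochondrial proteins, has a known site in the Alas1 promoter. The palindromic letters were found once, 60 bases upstream of the start of Alas1-201. They lie 30 bases past the RefSeq start at 106247954, within the first exon of Alas1-207, and 232 bases downstream of the start of Alas1-211. The 30 bases around them, chr9:106247906-106247935 on the minus strand, are printed with the site in capitals. These letters occur in 0.971% of the 32851 windows.
Alas1 NRF1 site: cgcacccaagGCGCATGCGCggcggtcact

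Alas2 (ENSMUSG00000025270.13, chromosome X, 150547375 to 150570638, plus strand) encodes the erythroid synthase, and mutations of the human gene are known to cause sideroblastic anaemia. It stood at 651 and 679 TPM in replicates 1 and 2 (665 ± 20.3), at the 99.4 percentile. Alas2 exceeded Alas1 by 18.9-fold in replicate 1 and 21.6-fold in replicate 2 (20.2 ± 1.92), a log2 ratio of 4.34 ± 0.14. The direction was the same in both libraries and the gap was far above the spread between them.

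The size of this ratio depended on the lengths assigned to Alas1. When all reads of each gene were divided by the effective length of its first listed model (Alas1-201 or Alas2-201), Alas1 had 19.3 ± 0.333 TPM and Alas2 had 589 ± 13.1 TPM. Alas2 was then 29.7-fold and 31.4-fold higher. Under the older GENCODE M4 annotation the ratio was 32.7-fold and 35.2-fold, with Alas1 at 20.4 ± 0.424 TPM. The expected counts of Alas1 hardly differed between annotations, at 1293 and 1169 under M21 and 1277 and 1150 under M4. Its effective length in replicate 1 did, at 1148 bases under M21 and 1959 bases under M4.

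Alas2 itself was divided mainly between a pair of coding models. Alas2-201 took 69.3% and 66.9% of Alas2 TPM, and Alas2-202 took 18.3% and 19.5%. Alas2-202 starts 84 bases later and begins exon 3 at 150553004 in place of 150552959, which leaves out 45 bases, or 15 codons, in frame. Of the sum of both models, Alas2-202 held 21.7 ± 1.16%. Alas2-204, a processed transcript of 569 bases that starts at 150566390, took 8.83% and 10.2%. The whole of Alas2 lies within the span of Apex2, a DNA repair gene on the opposite strand with 11.6 TPM.

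The Alas2 messenger carries an iron response element in its 5′ untranslated region, the stem-loop through which iron regulatory proteins hold back translation when iron is scarce. The core of this element, its loop with the bulged base before it, was found by exact letters in the M21 sequence of Alas2-201. The 28 bases shown, chrX:150547458-150547485 on the plus strand, end with exon 1, and capitals mark the loop. The loop begins 96 bases into Alas2-201, whose 5′ untranslated region is 126 bases, and 12 bases into Alas2-202. Both leading coding models thus contain the loop, and Alas2-203 and Alas2-204 start downstream of it. The core letters are not rare in genomic sequence, at 10.4% of all RefSeq promoter windows on the sense strand. Those windows lie mostly before the start, unlike the spliced untranslated region searched here. The Alas2 window itself held no match, so the share among untranslated regions is not known from them.
Alas2 iron response element: ttggttcgtcctCAGTGCagggcaacag

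**Figure D2:**
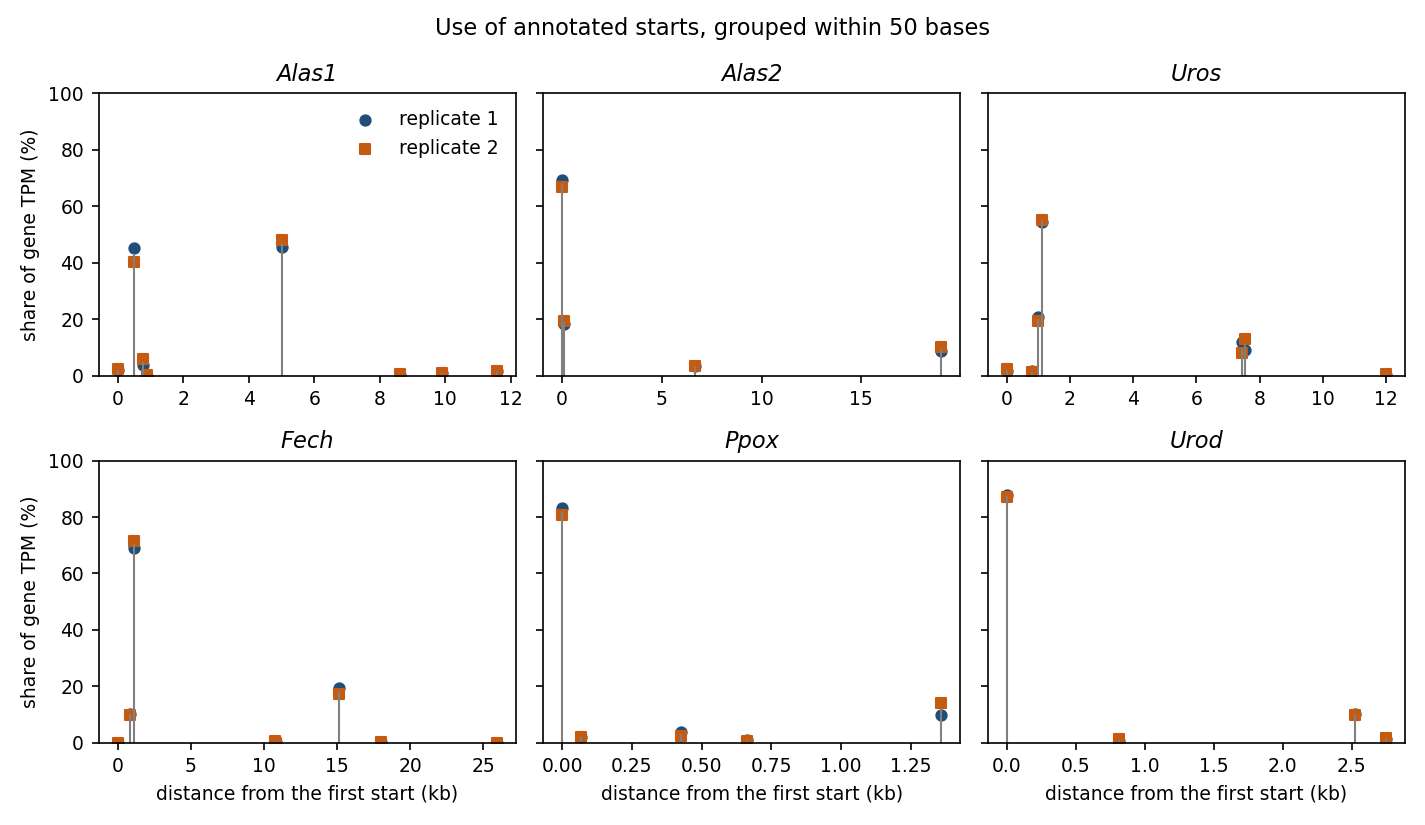
Share of each gene's TPM in percent, by annotated start, for Alas1, Alas2, Uros, Fech, Ppox and Urod, against the distance in kilobases from the gene's first start, with starts within 50 bases grouped (circles replicate 1, squares replicate 2). Alas1 is divided between starts 497 and 5020 bases from its first, and Uros has a pair of starts 7456 and 7534 bases from its first that together hold 21.1%.

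Alad (ENSMUSG00000028393.10, chromosome 4, 62509169 to 62519918, minus strand) encodes the dehydratase that joins aminolevulinate molecules into porphobilinogen. It reached 531 TPM in the first library and 523 TPM in the second (527 ± 5.02), a log2 ratio to Alas2 of -0.34 ± 0.06. Alad-201 took 98.4% of Alad TPM in replicate 1 and 98.6% in replicate 2. The 3 M21 models all start between 62519881 and 62519918, so these quantifications do not divide the gene between its known housekeeping and erythroid first exons. RefSeq lists starts at 62520063 and 62519909, and use of the former was not analysed here.

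Uros (ENSMUSG00000030979.13, chromosome 7, 133686243 to 133710072, minus strand) encodes uroporphyrinogen III synthase, which closes the porphyrin ring in its natural arrangement. The enzyme of the step between Alad and Uros is not analysed here. Uros stood at 151 and 158 TPM in replicates 1 and 2 (155 ± 4.71), the lowest of the members other than Alas1. Its log2 ratio to Alad was -1.77 ± 0.06. The expected counts were 5896 and 5621.

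Uros is known to have a housekeeping promoter before exon 1 and an erythroid promoter beside exon 2, where translation begins. Uros-204, which starts at 133708958, took 54.5% and 55.2% of Uros TPM, and a group of 4 models starting between 133709057 and 133709094 took 20.8% and 19.5%. The outer starts at 133709281 (Uros-201) and 133710072 (Uros-208) held 1.43 ± 0.323% and 1.92 ± 0.545%. The start at 133698080, inside the gene, held 0.573 ± 0.202%. The larger part of Uros TPM therefore sat on models that begin at exon 1.

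The starts beside exon 2, 133702616 in Uros-209 and 133702538 in Uros-210, lie 197 and 119 bases upstream of exon 2 of Uros-204 and 147 and 69 bases upstream of the longer exon 2 of Uros-203, and 6308 bases or more from exon 1. Uros-209 took 11.9% in replicate 1 and 8.01% in replicate 2, and Uros-210 took 9.16% and 13.1%. Each moved between libraries in the opposite direction, but their sum was nearly the same, at 21.08% and 21.09% (21.1 ± 0.00825), or 32.6 ± 1.00 TPM. In expected counts the pair held only 4.44% and 4.34% of Uros reads (262 and 244 reads), since the models are 371 and 323 bases long and TPM divides by length. The posterior SDs were 38.7 and 32.2 reads for Uros-209 and 30.1 and 26.0 reads for Uros-210. The share of exon 2 starts thus rests on few reads and on short models. It also rests on shared bases, as Uros-209 has 14 bases in no other model and Uros-210 has 0. Uros-205, which starts at exon 1 and was given 0 reads, has an extended exon 2 that reaches 133702602. Uros-210 also skips exon 3 of Uros-204. Whether reads given to the pair came from transcripts that start at exon 1 was not tested.

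Uros and Bccip overlap by 740 bases on opposite strands, and Bccip had 112 TPM. Whether the quantification used strand is not given in the sources used here, so reads in that overlap cannot be assigned with certainty. The overlap lies over the outermost start, Uros-208.

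Urod (ENSMUSG00000028684.14, chromosome 4, 116989965 to 116994413, minus strand) encodes the decarboxylase that turns uroporphyrinogen into coproporphyrinogen. It reached 459 TPM in the first library and 472 TPM in the second (466 ± 9.38), and its log2 ratio to Uros was 1.59 ± 0.01. Urod-201 took 74.6% and 73.9% of Urod TPM. The main group of starts held 87.4 ± 0.404%. Urod-209, a retained intron model that starts 2527 bases downstream of the first, took 10.3% and 9.93%. In all, 7 of its 10 models are retained introns, and these held 22.0 ± 0.153% of TPM and 10.6 ± 0.0797% of counts.

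Cpox (ENSMUSG00000022742.6, chromosome 16, 58670292 to 58717636, plus strand) encodes coproporphyrinogen oxidase, which works between the mitochondrial membranes. It stood at 580.0 and 588 TPM in replicates 1 and 2 (584 ± 5.52), a log2 ratio to Urod of 0.33 ± 0.02. Its reads went largely to a single model, Cpox-201, with 91.4% and 93.0% of TPM. The start group of that model held 94.2 ± 1.06%. With 53708 and 51103 expected reads, Cpox had the most reads of the members, over the longest leading model, at 3097 bases.

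Ppox (ENSMUSG00000062729.11, chromosome 1, 171275990 to 171281186, minus strand) encodes protoporphyrinogen oxidase, which gives the porphyrin its final oxidation. It reached 167 TPM in the first library and 173 TPM in the second (169.9 ± 4.67), and its log2 ratio to Cpox was -1.78 ± 0.03. Both Ppox libraries lay above both Uros libraries, by 1.10-fold in the means. Urod, the next gene up, was 2.74-fold above Ppox. These gaps depended on the lengths used: with all reads over the first listed model, Ppox was 1.81-fold above Uros and Urod 1.95-fold above Ppox.

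The coding model Ppox-201 took 62.6% and 59.1% of Ppox TPM. Ppox-207, a retained intron model of 4411 bases, took 17.6% and 18.1% of TPM with 4139 and 4091 expected reads, and Ppox-202, a shorter retained intron model, took 9.91% and 14.1%. All retained intron models together held 35.1 ± 3.59% of TPM and 46.5 ± 2.26% of counts. Among genes at 10 TPM or more with several models, the counts of Ppox outside coding models stood at the 94.5 percentile. Ppox overlaps B4galt3, on the opposite strand and at 27.5 TPM, by 907 bases, and Ppox-207 runs into this overlap, so part of its reads cannot be told apart from those of B4galt3 without strand.

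Fech (ENSMUSG00000024588.9, chromosome 18, 64452914 to 64490251, minus strand) encodes ferrochelatase, which inserts iron into protoporphyrin to complete haem. It stood at 657 and 688 TPM in replicates 1 and 2 (672 ± 21.8), the highest mean of the members. Its values overlapped those of Alas2, and the means differed by 1.01-fold. Within each library Fech was 1.01-fold above Alas2. On this scale the messengers of the last and the first enzyme of the erythroid pathway were therefore at nearly the same level. This did not hold under M4, where the means were 692 TPM for Alas2 and 465 TPM for Fech. Over the first listed models Fech was 1.13-fold above Alas2. From Ppox to Fech the log2 ratio under M21 was 1.98 ± 0.01.

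Fech had the most models of the members, 15. Fech-201 took 43.8% and 45.3% of Fech TPM, Fech-207 took 19.4% and 17.4%, Fech-211 took 13.8% and 14.8%, and Fech-213 took 10.4% and 9.94%. Fech-207 and Fech-211 are annotated as targets of nonsense-mediated decay, the destruction of messengers with an early stop codon. Models of that type held 35.3 ± 0.967% of TPM and 28.1 ± 0.735% of counts. Fech-207 starts at 64475126, 15125 bases downstream of the gene's first start, while the main group of starts held 70.3 ± 1.82%. All 1590 bases of Fech-207 lie in exons of Fech-201, but it skips exon 5 of that model. It had 6207 and 5398 expected reads, with posterior SDs of 4.01% and 4.41% of these.

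**Figure D3:**
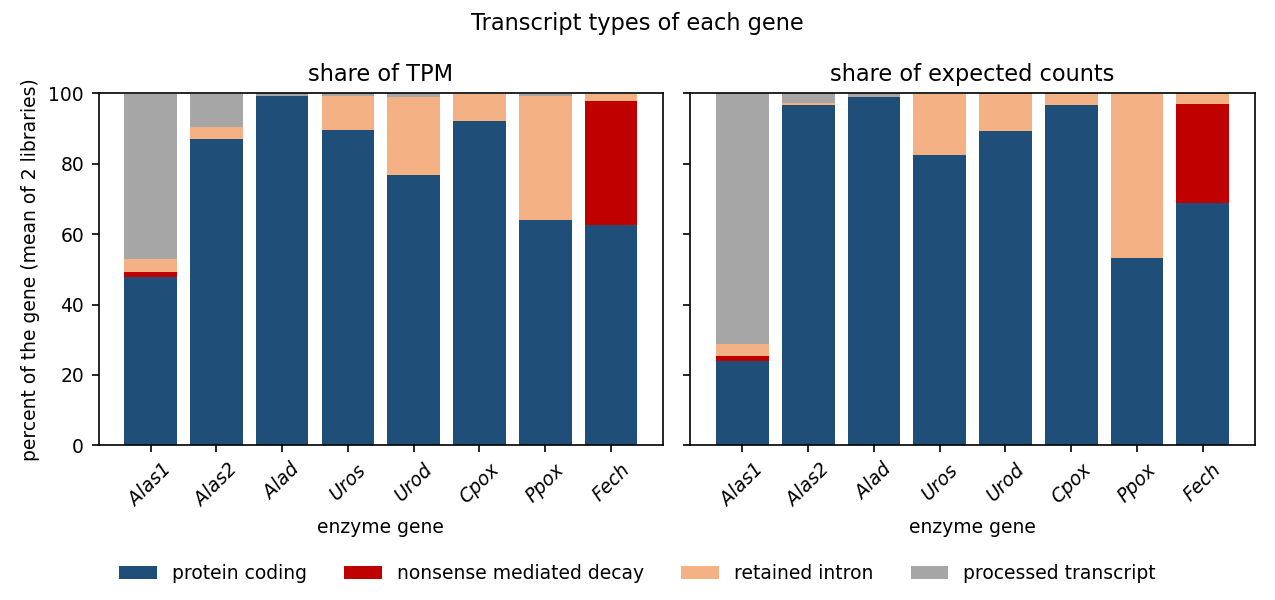
Percent of each gene's TPM (left) and expected counts (right) by annotated transcript type, as stacked bars of the mean of 2 libraries. Alad and Cpox are nearly all protein-coding, Alas1 is led by a processed transcript, Ppox has 35.1% of TPM in retained introns and Fech has 35.3% in models subject to nonsense-mediated decay.

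Across the members, the TPM share outside coding models ran from 0.623% in Alad to 52.1% in Alas1. It was 7.82% in Cpox, 10.3% in Uros, 13.0% in Alas2, 23.1% in Urod, 36.0% in Ppox and 37.4% in Fech, against a median of 8.90% over 6608 protein-coding genes. Only Alad and Cpox lay below that median. Among those genes Uros stood at the 53.6 percentile, Alas2 at 58.7, Urod at 71.9, Ppox at 82.6, Fech at 83.5 and Alas1 at 91.0. Shares of single model types were not computed over other genes. By counts, Alas2 also lay below the median, at 3.40% against 4.24%.

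In order of level, Fech and Alas2 led and were not apart, followed by Cpox, Alad, Urod, Ppox, Uros and Alas1. Neighbours were called apart where both libraries of one exceeded both of the other, and under M21 this held for every neighbouring pair except Fech and Alas2. Several steps were small all the same, at 1.14-fold from Alas2 to Cpox, 1.11-fold from Cpox to Alad and 1.13-fold from Alad to Urod. The drops from Urod to Ppox, 2.74-fold, and from Uros to Alas1, 4.69-fold, were larger.

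The annotation moved the place of Fech. Under M4, which has 1 Fech model, Fech reached 453 TPM in the first library and 478 TPM in the second (465 ± 18.1), so that Alas2 at 678 and 707, Cpox at 553 ± 10.8, Alad at 547 ± 5.12 and Urod at 484 ± 10.1 TPM all had higher means, though the values of Urod and Fech overlapped. Within each library Urod, at 477 and 491 TPM, was above Fech. The values of Cpox and Alad also overlapped under M4. The expected counts of Fech under M4 were 39920 and 39043, close to the 41325 and 40436 under M21. Its effective length in replicate 1 was 2802 bases under M4 and 1926 bases under M21. Dividing all M21 reads by the effective length of Fech-201 gave 664 ± 25.9 TPM. With every gene treated so, the ranks were those under M21, but both libraries of Fech then lay above both of Alas2 (580 and 598 TPM). Of the 8 genes, 1 passed 1.5-fold between annotations in both libraries, against a background of 5.51% of the genes compared. This was Alas1, with a log2 ratio of M21 to M4 of 0.66 ± 0.06 on the log2(TPM + 1) scale. Fech, at 0.53 ± 0.01, did not pass, and the other 6 lay between -0.06 and 0.08.

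**Figure D4:**
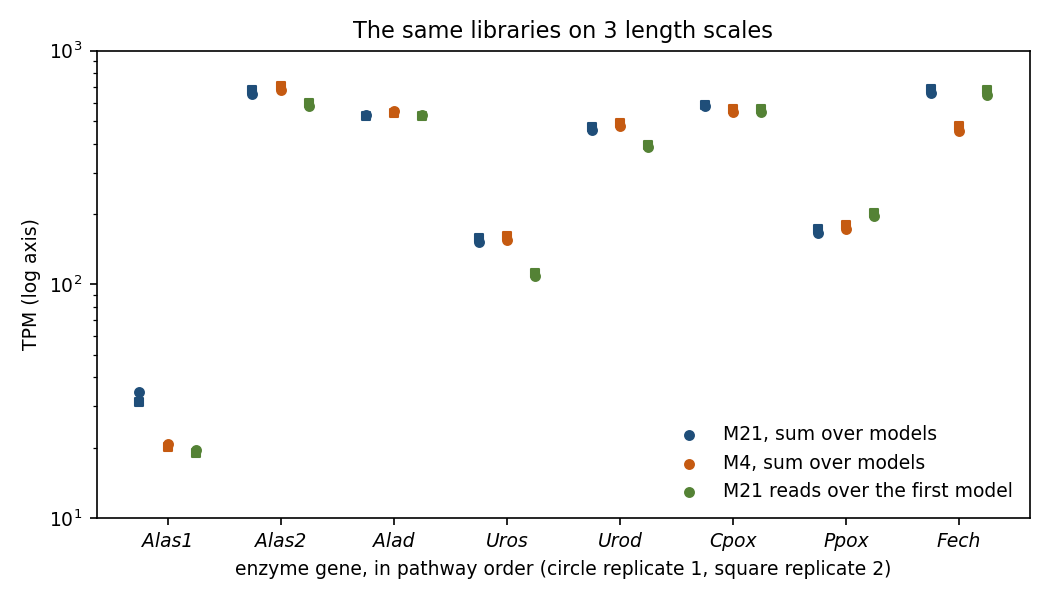
TPM on a log axis of the 8 genes on 3 length scales from the same libraries, M21 summed over models, M4 summed over models and M21 reads over the first listed model of each gene (circles replicate 1, squares replicate 2). Alas1 is higher when summed over M21 models (33.0 TPM) than on the other scales (20.4 and 19.3 TPM), and Fech is lower under M4 (465 TPM).

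Between the libraries none of the 8 genes passed 2-fold, against a background of 2.35% of the 17343 genes that averaged 10 counts or more. The log2 ratios of replicate 2 to replicate 1 ran from -0.03 in Alas1 to 0.08 in Fech, with a median of 0.04 against -0.00 for all genes. When scaled by the spike-ins, all genes shifted to a median of -0.12 and the enzymes to -0.08, with a range of -0.15 to -0.04. This scaling moved all genes by the same amount, and the median of the enzymes stood slightly above that of all genes on either scale.

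The genes that feed, move, use or sense haem were described from a list of 34. That list too was drawn up with earlier results of these data known. All 34 reached 1 TPM, 29 reached 10 TPM and 9 reached 100 TPM, against 54.3%, 32.1% and 5.38% of protein-coding genes. Their median, 54.2 ± 0.795 TPM, was below that of the 8 enzymes. None passed 2-fold between the libraries, and their log2 ratios ran from -0.21 to 0.23.

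Of the genes that supply substrate, porphyrin and iron, Tmem14c and Glrx5 reached the level of the most abundant enzymes. Slc25a38, the mitochondrial glycine carrier that serves the first step, stood at 121 and 119 TPM in replicates 1 and 2. Tmem14c, a mitochondrial membrane protein needed to move the porphyrin intermediate inward, had 768 and 784 TPM, above every enzyme in both libraries. Abcb10, a mitochondrial transporter that stabilises the iron importer, had 160 and 164 TPM. Glrx5, which takes part in making iron-sulphur clusters, had 603 and 610 TPM, between Cpox and Alas2. Slc25a37, the mitochondrial iron importer mitoferrin-1, had 311 and 317 TPM.

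By role, the medians were 76.7 TPM over 10 porphyrin and protein partners and 75.9 TPM over 8 iron supply genes, against 6.31 TPM over 3 haem transporters, 34.9 TPM over 7 genes of haem use and breakdown and 15.1 TPM over 5 sensors. Slc48a1, which carries haem out of lysosomes, had 74.4 and 70.1 TPM, and Flvcr1, a haem exporter of the cell surface, had 6.26 and 6.35 TPM. Blvrb, a biliverdin reductase known to be abundant in red cells, had 751 and 749.7 TPM, while Hmox1, the inducible haem oxygenase, had 75.0 ± 4.07 TPM. Eif2ak1, the haem-regulated kinase that slows globin translation when haem is short, had 91.8 and 92.0 TPM. Aco1, which binds iron response elements when iron is low, had 23.0 and 22.5 TPM.

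**Figure D5:**
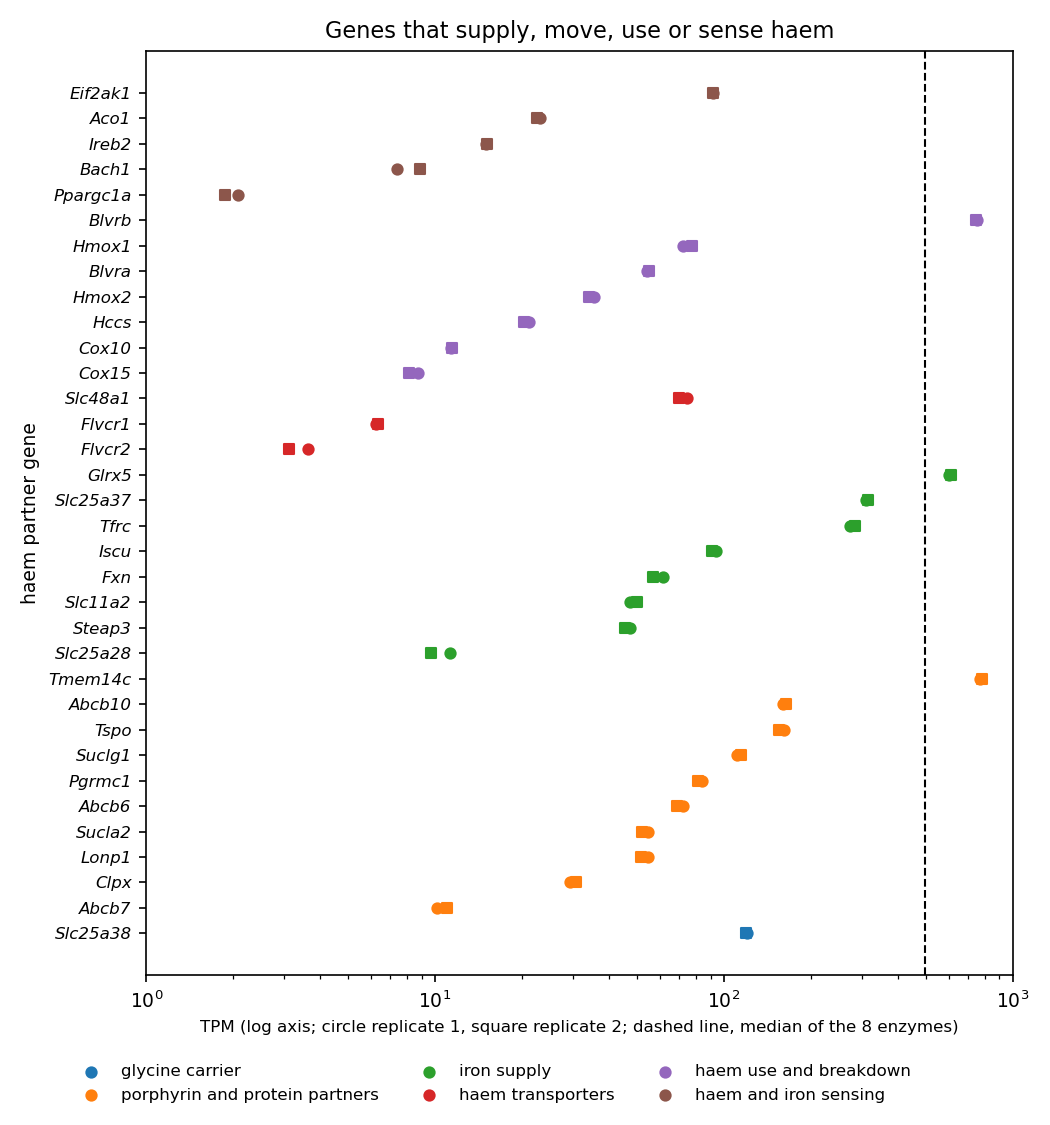
TPM on a log axis of the 34 partner genes grouped by role (circles replicate 1, squares replicate 2), with a dashed line at the median of the 8 enzymes, 496 TPM. Tmem14c, Blvrb and Glrx5 lie to the right of the line, and the other 31 lie to its left, with Ppargc1a lowest at 1.98 TPM.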

How the data were processed

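PolyA RNA-seq of 2 libraries of embryonic mouse liver was used as deposited. The expected counts are the authors' division of reads among genes or transcripts and need not be whole. TPM, also the authors' own, divides these by effective length, per the file headers. The deposited notes name mm10 and the GENCODE annotation of each table, M21 (used throughout) or M4. The aligner, the quantifier, both versions and any use of strand were not given in the sources used here.

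TPM was averaged over libraries, transcript shares were taken over each gene's TPM, and starts within 50 bases were grouped. Libraries were compared by expected counts (rounded to whole numbers for the interval) scaled with TMM of edgeR 4.0.16, prior count 0.5, for genes averaging 10 counts or more. A gene was called past 2-fold where the exact 95% binomial interval of the split, which covers counting error only, also excluded the scaled split. The annotations were compared by log2(TPM + 1), with a call at 1.5-fold in both libraries among genes at 1 TPM or more. Alternatives included the size factors of DESeq2 1.42.0, scaling by spike-ins or totals, other filters and prior counts, posterior mean TPM, rescaled TPM and M4.

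Named were all 8 genes, their transcripts and start groups with at least 10% of TPM in either library, all start groups of Uros and Alad, and the 2 highest partners of each role. Ppargc1a, Apex2, Bccip and B4galt3 were named after their values were seen. Members and lists were chosen with earlier results of these data known. The GATA forms other than AGATAA, their count together, the levels over the first listed models and the Uros share in counts were added after seeing the data. Motif windows came from RefSeq, GRCm38.p6. Protein sequences were not analysed here.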

Additional observations from a re-analysis of the deposited data

How the results depend on the processing

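The log2 ratios of Alas2 to Alas1 and between members next to each other in pathway order kept their direction under all alternatives tried. Fech was not paired so with Alas2 or Urod, and under M4 both had higher means than Fech. Each library alone gave a median of the enzymes of 495 to 498 TPM and a log2 ratio of Alas2 to Alas1 of 4.24 to 4.43, which with 2 libraries says nothing of stability. Of the start and transcript shares, 12 had no value under an alternative that lacks the model. The log2 ratio of Fech to Ppox was 1.40 under M4 and 1.73 over the first listed models, and that of Uros to Alad was -2.26 over the latter. The median of the enzymes was 475 TPM under M4, 487 with posterior mean TPM and 524 after rescaling without spike-ins, and that of the partners was 55.8, 53.3 and 57.1 TPM. The log2 ratio of Alas2 to Alas1 was 5.08 under M4 and 4.93 over the first listed models. The share of Uros on starts beside exon 2 was 20.1% under M4, 20.3% with posterior mean TPM, 23.5% over coding transcripts and 4.39% in counts. With posterior mean TPM, 0 enzyme genes passed 1.5-fold between annotations, as Alas1 then had a mean log2 ratio of 0.60. The genes past 2-fold between the libraries numbered 408, but 18 with a minimum of 100 counts and 754 with none, and no enzyme was among them. Depth limits the division of reads among models, as for Alas1-201, whose posterior SD exceeded its estimate. With 2 libraries an exact sign-flip test cannot go below 0.5.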
